A study of Sus scrofa with 36 samples.

Results

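The expression of 6 genes, TAS1R3, CARMIL3, EDA, TMOD4, CD164 and CAMKMT, was followed over 3 obesity groups in RNA-Seq of pig subcutaneous adipose tissue, in a table of 12253 genes of which 8320 had a symbol. The 6 genes were chosen on measured values of these same pigs. They are 6 of the 7 genes with a symbol among 11 genes with a Benjamini-Hochberg (BH) adjusted P-value below 0.05 for a linear trend over the mean Obesity Index of the groups, which is 0.0898% of all genes. Their differences between the groups are therefore given as a description. Where the number of them past a threshold is stated, it shows how the choice depends on pigs and fit and is no test of the genes. The difference between the sexes, the interaction of sex with obesity and the correlations within the groups were not what they were chosen on and were tested. The choice weighed each trend against the spread within the groups and so favoured genes with a small spread.

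The 36 pigs were an F2 intercross of Göttingen Minipig boars and Duroc sows. The Low (lean), Mean (intermediate) and High (obese) groups held 12 pigs each, ranked by the Obesity Index, a predicted genetic value for the degree of obesity rather than a measured fat mass. By the study's account the pigs were slaughtered at a similar weight and so at different ages, the lean pigs being the oldest and the obese pigs the youngest, so that the index and age at slaughter cannot be told apart in any trend over the groups. There were 7 males and 5 females among the lean pigs, and 6 of either sex in each of the other groups. Each pig had 1 library, with 8735838 to 11755925 reads over the genes of the table. Full sibs occur within the groups and the libraries were spread over several sequencing lanes, but neither could be assigned to single pigs here, so P-values treat the pigs as unrelated. Of 10 adipocyte markers, 6 were matched in the table (PLIN1, PLIN4, CIDEC, LIPE, PPARG and CFD), with a summed level of 28110 to 80973 normalized counts among lean, 38859 to 86689 among intermediate and 49344 to 96910 among obese animals. Normalized counts are the recovered reads divided by the size factor of the library. A pair of libraries stood apart: lean replicate 7, a male, in which the epithelial gene DSP had 14094 normalized counts against a group median of 31.5, and intermediate replicate 6, also a male, with the highest skeletal muscle marker sum of its group, 513 against a median of 94.1.

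CARMIL3 and TMOD4 both act on actin filaments, and the other 4 genes serve in taste reception, development, cell adhesion and calcium signalling. TAS1R3 is the subunit shared by the sweet and the umami taste receptors, G protein coupled receptors that are also found outside the tongue. CARMIL3 is one of a family of proteins that bind actin capping protein and thereby act on the growth of actin filaments. EDA is ectodysplasin A, a ligand of the TNF family that signals to NF-kB through its receptor EDAR in the development of hair, teeth and glands, and whose gene lies on the X chromosome. TMOD4 is a tropomodulin, a protein that caps the pointed ends of actin filaments and is best known from skeletal muscle. CD164 is a sialomucin of the cell surface and of endosomes, with a role in cell adhesion and in migration along with CXCR4. CAMKMT is the methyltransferase that trimethylates a lysine of calmodulin, the calcium sensor.

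TAS1R3, CARMIL3, EDA and TMOD4 were lower in obese than in lean pigs, and CD164 and CAMKMT were higher. For all 6 the mean of the intermediate pigs lay between the means of the other groups, which held for 39.6% of the 12253 genes. In bulk tissue, fewer cells of a type and less RNA per cell cannot be told apart.

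**Figure D1:**
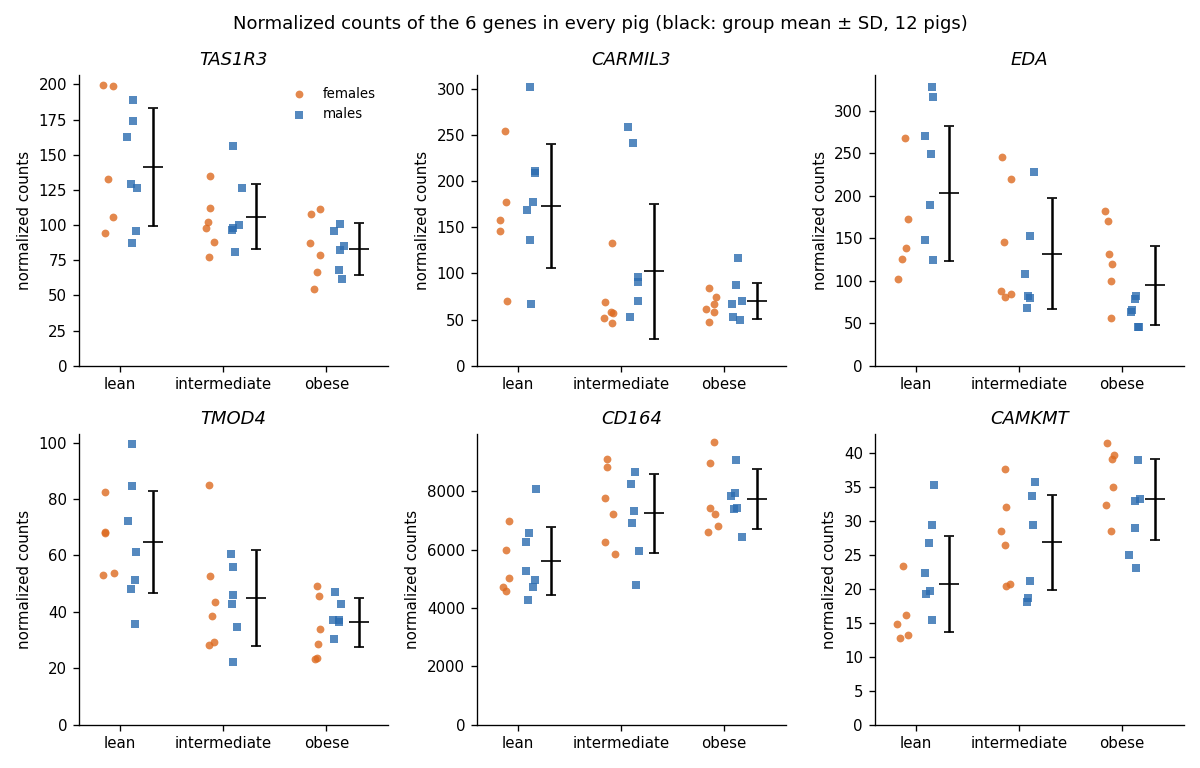
Normalized counts of the 6 genes (vertical axes, each from 0) in every pig of the lean, intermediate and obese groups, with circles for females, squares for males and black bars for the group mean ± SD of 12 pigs. The lean and obese groups overlap for every gene when both sexes are pooled, while EDA of males is at 124 or more in lean and at 81.8 or less in obese pigs.

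TAS1R3, the taste receptor subunit, ranged from 87.5 to 200 normalized counts in lean pigs, with a median of 131. In intermediate pigs it ranged from 77.3 to 156 with a median of 98.9, and in obese pigs from 54.5 to 111 with a median of 83.5. The means were 141 ± 42.0, 106 ± 23.1 and 83.3 ± 18.4 (SD, n = 12 per group). The groups overlapped: all 12 obese pigs lay below the lean median, and 8 of them lay below every lean pig. The obese minus lean difference was -0.75 (SE 0.15) on the log2 scale, and the step from lean to intermediate made up 53.5% of it.

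CARMIL3, the actin regulator, showed the largest difference on the log2 scale among the 6 genes, -1.22 (SE 0.26). It ranged from 67.2 to 302 normalized counts in lean pigs (median 173), from 46.7 to 259 in intermediate pigs (median 69.5) and from 47.3 to 117 in obese pigs (median 66.9). The means were 173 ± 67.4, 102 ± 73.4 and 69.7 ± 19.5 (SD, n = 12 per group). The intermediate median was thus close to the obese median, and the intermediate mean was raised by high values in single pigs. The highest was intermediate replicate 6 with 278 reads, one of the libraries that stood apart. All 12 obese pigs lay below the lean median, and 10 of the 12 lean pigs lay above every obese pig.

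EDA, the TNF family ligand, ranged from 102 to 328 normalized counts in lean (median 181), from 68.0 to 245 in intermediate (median 98.0) and from 45.9 to 181 in the obese pigs (median 80.0). Its means were 203 ± 79.8, 132 ± 65.3 and 94.8 ± 46.4 (SD, n = 12 per group), and the obese minus lean difference was -1.17 (SE 0.25) on the log2 scale. Of the obese pigs, 11 lay below the lean median and 8 lay below every lean pig. The spread within the groups was wide in all 3 groups, with a coefficient of variation of 39.4% in lean, 49.6% in intermediate and 48.9% in the obese pigs, where counting of reads alone would give 6.98% to 10.3%.

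TMOD4, the tropomodulin, was counted from few reads, 20 to 97 in a pig. Its normalized counts ranged from 35.6 to 99.4 in lean (median 64.6), from 22.1 to 84.9 in intermediate (median 43.2) and from 23.3 to 49.0 in the obese pigs (median 36.6). The means were 64.8 ± 18.0, 44.95 ± 17.1 and 36.2 ± 8.71 (SD, n = 12 per group). All 12 obese pigs lay below the lean median, and 10 lean pigs lay above every obese pig. The difference was -0.83 (SE 0.18) on the log2 scale. Of 15 markers of skeletal muscle, in which TMOD4 is best known, TNNC2 and PYGM were matched by symbol and the other 13 could not be read here. TNNC2 and PYGM had a sum of 49.9 to 325 normalized counts among lean, 54.2 to 513 among intermediate and 44.9 to 144 among obese animals, and differed by -0.07 (SE 0.29) and -0.46 (SE 0.32) between obese and lean pigs. Over residuals after group and sex, TMOD4 had an r of 0.184 (rho 0.172) with the score of both genes (BH-adjusted permutation P = 0.743 for r), and r was 0.231 without the 2 pigs farthest from the median.

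CD164, the sialomucin, was supported by far more reads than the other 5 genes, 4335 to 8949 in a pig. It ranged from 4271 to 8084 normalized counts in lean (median 5137), from 4778 to 9099 in intermediate (median 7276) and from 6420 to 9708 in the obese pigs (median 7432). Its means were 5618 ± 1161, 7241 ± 1350 and 7736 ± 1032 (SD, n = 12 per group). Most of the difference was between lean and intermediate pigs: the first step was 0.35 (SE 0.10) of a total of 0.46 (SE 0.10) on the log2 scale, and the step from intermediate to obese was 0.11 (SE 0.10). The first step made up 76.3% of the difference for CD164, and 53.5% (TAS1R3) to 72.1% (CARMIL3) for the other 5 genes. No obese pig was below the lean median, and 3 of the 12 exceeded every lean pig. CD164 thus had the smallest difference on the log2 scale of the 6 genes and also the smallest SE.

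CAMKMT, the calmodulin methyltransferase, had the fewest reads, 13 to 43 in a pig. It ranged from 12.7 to 35.3 normalized counts in lean (median 19.5), from 18.0 to 37.6 in intermediate (median 27.5) and from 23.1 to 41.5 in the obese pigs (median 33.1). Its means were 20.7 ± 7.01, 26.9 ± 6.98 and 33.2 ± 5.98 (SD, n = 12 per group), and the difference was 0.71 (SE 0.15) on the log2 scale. Counting of reads alone would give a coefficient of variation of 22.0% in lean and 17.4% in obese pigs, against 33.9% and 18.0% observed. In obese pigs the spread between animals was therefore close to the counting error.

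By the measure of the choice, TMOD4 was the last of the 11 genes inside it. The first gene outside it was ENSSSCG00000016093, which had no symbol, with 103 ± 58.6, 52.8 ± 38.4 and 38.5 ± 18.9 normalized counts in lean, intermediate and obese pigs (SD, n = 12 per group) and a difference of -1.34 (SE 0.30) on the log2 scale. The next genes with a symbol outside it were CSPG4, a proteoglycan of pericytes (0.95, SE 0.21), CFAP161 (-1.47, SE 0.33), TMEM98 (-0.61, SE 0.14) and ADAM9, a membrane protease (0.53, SE 0.12). The remaining gene with a symbol inside it was RASIP1, a Ras interacting protein of the endothelium, with 1436 ± 268, 1082 ± 209 and 1024 ± 162 normalized counts (SD, n = 12 per group) and a difference of -0.51 (SE 0.11). With the groups scored -1, 0 and 1 in place of the index means, 3 genes passed (0.0245%), of which 1 was among the 6, TAS1R3. With 1 pig left out, none of the 6 passed in 11 and all 6 in 5 of 36 fits, and TAS1R3 did not pass with division by the size factor alone. The direct comparison of obese with lean pigs had 5 genes past the threshold (0.0408%), again with TAS1R3 as the only one of the 6. How many of the 6 passed in that comparison depended on the pigs and the fit: all 6 did without the intensity trend and in lean and obese pigs alone, none did without the lowest 25% of genes (a filter that also removed TMOD4 and CAMKMT) or with the mean level of smooth muscle or of macrophage markers as a term, and with 1 pig left out it was 0 in 12 and 6 in 5 of 36 fits (without lean replicate 2, 8 or 10, or intermediate replicate 2 or 6). Without both libraries that stood apart none of the 6 passed in either comparison, and the obese minus lean differences were -0.71 for TAS1R3, -1.19 for CARMIL3, -1.15 for EDA, -0.86 for TMOD4, 0.435 for CD164 and 0.68 for CAMKMT.

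Whether the level of the genes differed between males and females was tested with limma over all pigs, with the obesity group as a term. None of the 6 genes passed, while 268 of the 12253 genes did (2.19%), 117 of them higher and 151 lower in males; 2245 genes had an unadjusted P-value below 0.05, none of them among the 6. The interval of the difference shows how well each was determined. For CD164 the male minus female difference was -0.03 on the log2 scale, with a 95% interval of -0.19 to 0.13. For CARMIL3 it was 0.35, with an interval of -0.07 to 0.78 (limma, BH-adjusted P = 0.364), and for EDA it was -0.24, with an interval of -0.65 to 0.18 (limma, BH-adjusted P = 0.566).

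The interaction of sex with obesity asked whether the obese minus lean difference was the same in males and females. In this test 1 gene of 12253 passed (0.00816%), which was none of the 6, and 1577 genes had an unadjusted P-value below 0.05. EDA and CAMKMT were among these 1577. The median of the interaction over all genes was 0.09 on the log2 scale, so values of single genes are not centred on 0. EDA of males ranged from 124 to 328 normalized counts in the 7 lean pigs, from 68.0 to 228 in the 6 intermediate and from 45.9 to 81.8 in the 6 obese pigs. In females it ranged from 102 to 268 in the 5 lean, from 81.3 to 245 in the 6 intermediate and from 56.4 to 181 in the 6 obese pigs. Lean and obese males did not overlap, as was the case for 0.286% of all genes, and nothing is read from this count since the trend over the groups that chose the genes includes these pigs; lean and obese females overlapped widely. The obese minus lean difference of EDA was -1.79 (SE 0.31) in males and -0.43 (SE 0.34) in females on the log2 scale. The difference between them was -1.37, with a 95% interval of -2.30 to -0.43, an unadjusted P of 0.00533 and a BH-adjusted P of 0.228 in limma, so that it did not pass the correction over all genes.

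CAMKMT had its larger difference in females. In females it ranged from 12.7 to 23.3 normalized counts in the 5 lean, from 20.4 to 37.6 in the 6 intermediate and from 28.6 to 41.5 in the 6 obese pigs, without overlap between lean and obese. In males it ranged from 15.4 to 35.3 in the 7 lean, from 18.0 to 35.7 in the 6 intermediate and from 23.1 to 39.0 in the 6 obese pigs, with wide overlap. The obese minus lean difference was 1.11 (SE 0.21) in females and 0.38 (SE 0.19) in males on the log2 scale. The difference between the sexes was -0.73, with a 95% interval of -1.31 to -0.14, an unadjusted P of 0.0162 and a BH-adjusted P of 0.297 in limma. TMOD4 also did not overlap between lean females, at 53.0 to 82.4, and obese females, at 23.3 to 49.0, and such a lack of overlap in females was found for 2.55% of all genes. Nothing is read from it for CAMKMT or TMOD4 either, since the trend that chose them includes these pigs. For the other 4 genes the BH-adjusted P of the interaction lay between 0.688 and 0.992 in limma. CD164 had nearly the same difference in males (0.47, SE 0.14) and females (0.46, SE 0.15), with an interval of -0.40 to 0.41 for the difference between them. The interval of CARMIL3, -0.99 to 1.10, was wide.

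**Figure D2:**
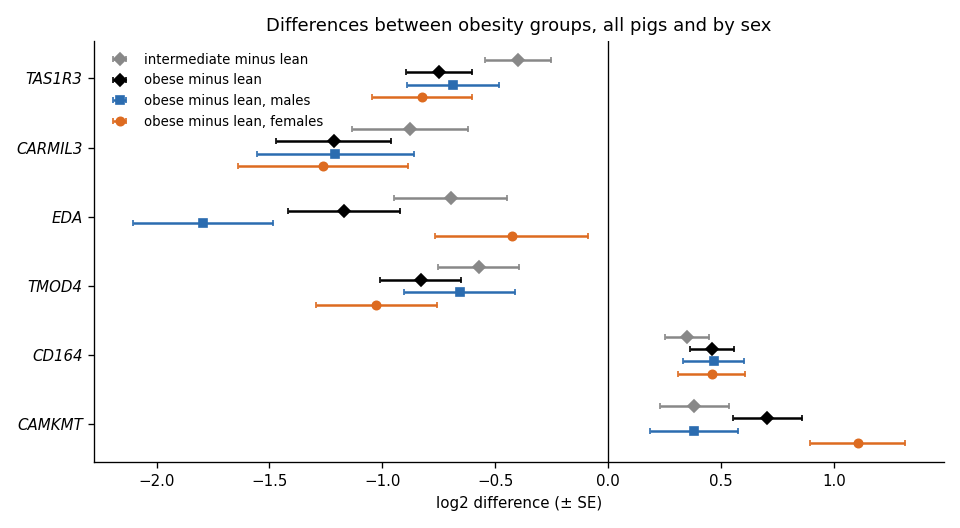
Differences on the log2 scale (horizontal axis, ± SE) for the 6 genes: intermediate minus lean in grey, obese minus lean in black, and obese minus lean within males (squares) and within females (circles). The sexes stand farthest apart for EDA (-1.79 in males, -0.43 in females) and CAMKMT (0.38 in males, 1.11 in females).

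The other genes of the pathways were taken from lists of known partners. None of them passed in the comparison of obese with lean pigs, in which 0.0408% of all genes did, and the median of all genes was -0.01 on the log2 scale. An unadjusted P-value below 0.05 in limma was found for 7 of these 64 genes, against 14.7% of all genes. In the list of sweet and umami taste signalling, 9 genes besides TAS1R3 were matched, 3 of them above and 6 below 0, with a median of -0.04. TAS1R1, the umami partner of TAS1R3, was measured at 36.9 ± 10.9 in the lean group and 35.0 ± 11.2 in the obese group (normalized counts, SD, n = 12 per group), a difference of -0.13 (SE 0.18), and TAS1R2, the sweet partner, was not matched. Farthest from 0 were GNB3, a G protein beta subunit, with -0.69 (SE 0.22), and PLCB2, the phospholipase that follows the receptor in taste cells, with 0.68 (SE 0.22); both were singled out after their values were seen.

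Among partners of CARMIL3, 16 genes were matched, 13 of them above and 3 below 0, with a median of 0.10. The paralogs CARMIL1 and CARMIL2 differed by 0.10 (SE 0.13) and -0.0019 (SE 0.24). RCSD1, a protein that binds capping protein, had the difference farthest from 0, 0.30 (SE 0.15), followed by CAPG, a capping protein of the gelsolin family, with 0.27 (SE 0.27). Neither passed the test.

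For EDA, 16 genes of the TNF family and of NF-kB signalling were matched, with 13 above and 3 below 0 and a median of 0.07. The receptors EDAR and EDA2R and the adaptor EDARADD were not matched, so the receptor side of the ligand was not analysed here. IKBKG, the regulatory subunit of the IkB kinase, was the only gene of the 6 pathway lists past the threshold for sex, lower in males by a log2 difference of -0.36 (limma, BH-adjusted P = 0.0316), and it differed by 0.05 (SE 0.11) between obese and lean pigs. TNFSF13B, a B cell survival factor, differed by 0.95 (SE 0.35) and TRAF1, a TNF receptor adaptor, by 0.48 (SE 0.15), and both were named after their values were seen.

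In the tropomodulin list, 5 genes besides TMOD4 were matched, 3 above and 2 below 0, with a median of 0.07. TPM1, a tropomyosin of muscle and other cells, differed by -0.53 (SE 0.17), and TMOD2 by 0.42 (SE 0.28). For CD164, 5 of its list were matched, 4 above and 1 below 0, with a median of 0.06. PODXL2, another sialomucin, differed by -0.26 (SE 0.16), and the lysosomal protein LAMP2 by 0.14 (SE 0.09). For CAMKMT, 13 genes around calmodulin were matched, 5 above and 8 below 0, with a median of -0.03. The calmodulin kinases CAMK2G and CAMK2D differed by -0.30 (SE 0.17) and 0.29 (SE 0.16). No other gene of these pathway lists passed for sex.

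**Figure D3:**
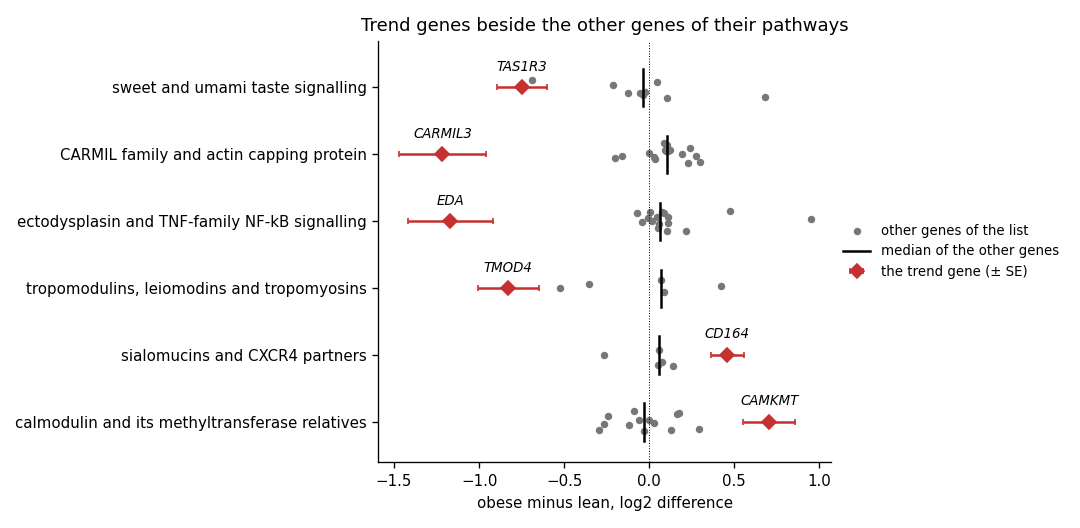
Obese minus lean difference on the log2 scale (horizontal axis) for each of the 6 genes (diamonds, ± SE) and for the other matched genes of its list (grey points), with the median of those other genes as a black bar. The 6 genes were chosen for their group differences, so their distance from the grey points is a description; single list genes reach -0.69 (GNB3) and 0.95 (TNFSF13B).

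Neighbouring genes were examined next, since genes side by side can vary together. The order of genes was taken from RefSeq on Sscrofa11.1, which is not the build of the files, so that no positions are given. Of 36 measured neighbours, up to 3 on either side, none passed for obese minus lean, sex or their interaction; 6 had an unadjusted P-value below 0.05 for obese minus lean and 5 for the interaction (limma), against 14.7% and 12.9% of all genes. The neighbour with the difference farthest from 0 was MXRA8 for TAS1R3 (-0.36, SE 0.14), FITM1 for CARMIL3 (-0.59, SE 0.21), SEMA6C for TMOD4 (-0.23, SE 0.17), FOXO3 for CD164 (0.41, SE 0.26) and EPAS1 for CAMKMT (-0.38, SE 0.13). DVL1, which overlaps TAS1R3 in RefSeq, differed by 0.03 (SE 0.08); the library kit did not mark strand, so reads in the overlap cannot be assigned by strand.

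For EDA the neighbour was NALF2, the gene directly next to it, which RefSeq lists under its older symbol FAM155B. NALF2 ranged from 55.6 to 457 normalized counts in lean (median 338), from 57.6 to 302 in intermediate (median 117) and from 69.8 to 310 in the obese pigs (median 99.0). Its obese minus lean difference was -0.99 (SE 0.33) on the log2 scale, with a BH-adjusted P of 0.132 in limma. As with EDA, the difference was larger in males. It was -1.80 (SE 0.41) in males, from 146 to 457 in lean and from 69.8 to 120 in obese pigs, and -0.03 (SE 0.45) in females. The interaction had an unadjusted P of 0.00623 and a BH-adjusted P of 0.231 in limma and thus did not pass either. Among the neighbours the smallest P of the interaction was that of PIP5K1A beside TMOD4 (0.64, unadjusted P = 0.000348, BH-adjusted P = 0.137, limma). PDZD11, on the other side of EDA, had an interaction of -0.66 (unadjusted P = 0.0114, BH-adjusted P = 0.271, limma). It differed by -0.31 (SE 0.17) in males and 0.36 (SE 0.18) in females. NALF2 was the gene with the highest correlation with EDA among 8319 genes with a symbol, r = 0.705 over the residuals of 36 pigs after group and sex were removed. These residuals still hold the pattern by sex described above. With the mean of every group and sex removed, a step chosen after seeing the data, r was 0.627 and NALF2 ranked 2 of 8319. The genes do not overlap in RefSeq.

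**Figure D4:**
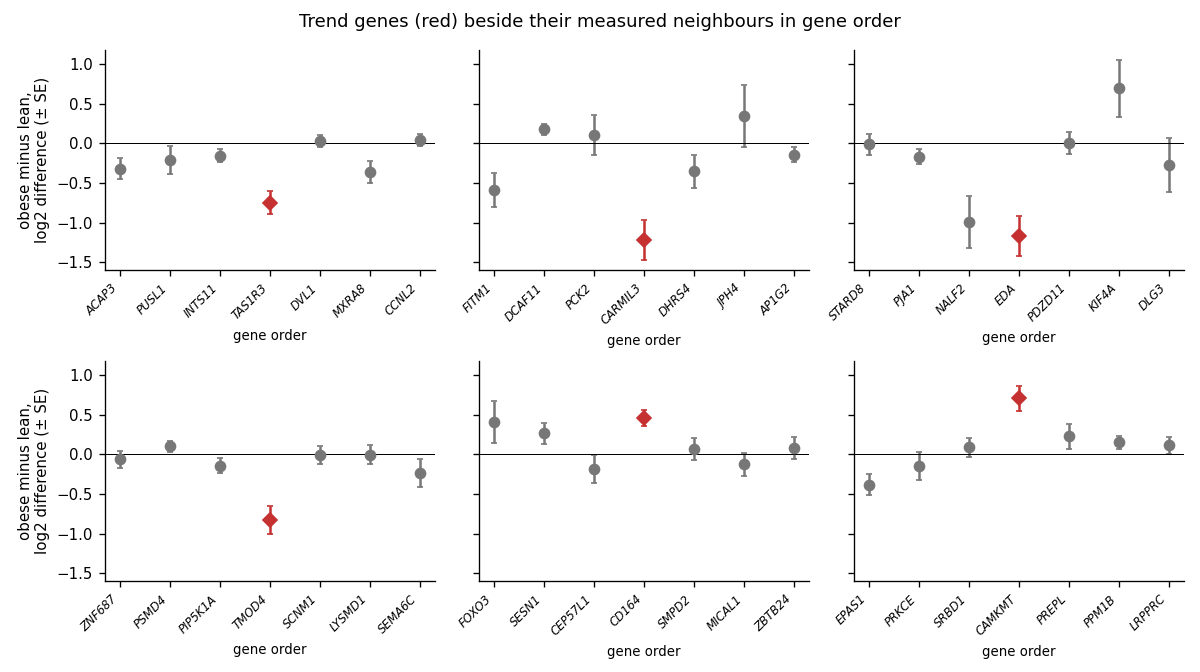
Obese minus lean difference on the log2 scale (vertical axis, ± SE) for the 6 genes (red diamonds) and up to 3 measured neighbours on either side in gene order (grey points). NALF2 beside EDA is the only neighbour below -0.6 (-0.99), and no neighbour passed the test.

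Within the groups, the 6 genes were compared with each other on residuals after group and sex were removed, so that the group means that chose them did not enter. All 15 pairs were tested by permutation of the pigs within group and sex, with BH correction over the pairs. None passed, and 3 had an unadjusted permutation P below 0.05. TAS1R3 and TMOD4 came closest with a positive r of 0.469 (rho 0.420, BH-adjusted permutation P = 0.0541 for r and 0.133 for rho), and r was 0.411 without the 2 pigs farthest from the median of TAS1R3. It was of similar size in lean (0.534), intermediate (0.451) and obese pigs (0.462). CARMIL3 and CD164 had a negative r of -0.510 (rho -0.393, BH-adjusted permutation P = 0.0541 for r and 0.154 for rho). This r was -0.310 without the 2 pigs farthest from the median of CARMIL3, and within single groups it was -0.405 (lean), -0.838 (intermediate) and 0.198 (obese), a difference that was not tested. Intermediate replicate 6 had the highest CARMIL3 and the lowest CD164 of its group, 259 and 4778 normalized counts. TAS1R3 and CARMIL3 had an r of 0.406 (rho 0.411, BH-adjusted permutation P = 0.113 for r and 0.133 for rho). The other 12 pairs had r between -0.355 and 0.242.

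**Figure D5:**
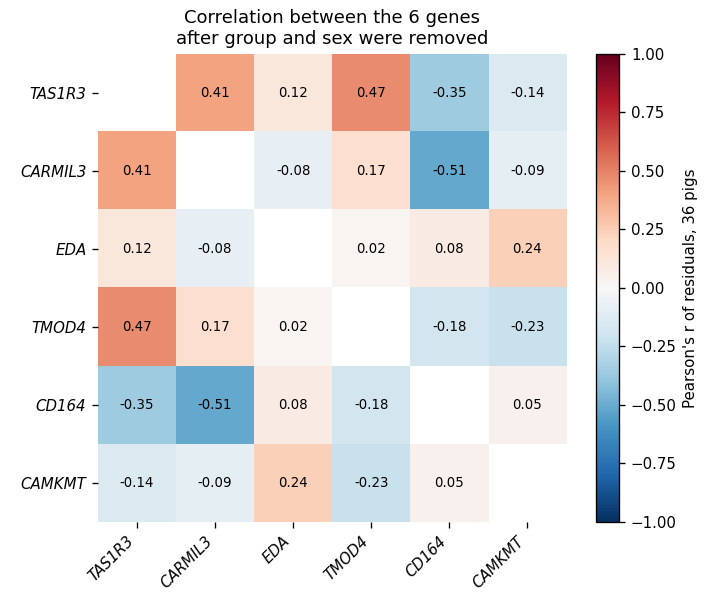
Pearson's r between the 6 genes over the residuals of 36 pigs after group and sex were removed, with blue for negative and red for positive values. The highest value is 0.47 for TAS1R3 with TMOD4 and the lowest -0.51 for CARMIL3 with CD164.

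The variation of the 6 genes was also set against markers of the cell types that the tissue can hold. The score of a list is the mean of its scaled genes, and 66 pairs of a gene with 1 of 11 lists were tested by permutation on the same residuals. A single pair passed, TAS1R3 with the smooth muscle or pericyte list, with an r of 0.595 (BH-adjusted permutation P = 0.0429). Spearman's rho was 0.556 (BH-adjusted permutation P = 0.0983), and r was 0.532 without the 2 pigs farthest from the median. Of 8 markers, 7 were matched (ACTA2, MYH11, TAGLN, CNN1, MYLK, PDGFRB and NOTCH3), with a sum of 4837 to 16418 normalized counts among lean, 4721 to 9783 among intermediate and 4422 to 13193 among obese animals. Their obese minus lean differences had a median of -0.31, 6 of 7 were below 0, and none passed, with 1 at an unadjusted P-value below 0.05 in limma (14.7% of all genes). A second score of this list was taken from the deposited values, which hold the group differences, and used as a term in the fit. The obese minus lean difference of TAS1R3 was then -0.61 (SE 0.13), against -0.75 (SE 0.15) without the term. With it TAS1R3 did not pass (limma, BH-adjusted P = 0.112). The next pair was TAS1R3 with the B cell list, of which 1 of 6 markers was matched (CD22), with an r of -0.523 (BH-adjusted permutation P = 0.0769). TMOD4 and the endothelial list, of which 5 of 8 markers were matched, had an r of 0.467 (BH-adjusted permutation P = 0.112).

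Macrophage markers were higher on average in obese pigs. All 7 matched genes of 10 were above 0 in obese minus lean, with a median of 0.80, and 6 had an unadjusted P-value below 0.05 in limma, as had 14.7% of all genes, though none passed. Their sum was 2030 to 10306 normalized counts among lean, 2736 to 10229 among intermediate and 4375 to 11044 among obese animals. A macrophage score from the deposited values, which also holds the group differences, was used as a term in the same way. The obese minus lean differences were then -0.60 for TAS1R3, -1.20 for CARMIL3, -0.89 for EDA, -0.74 for TMOD4, 0.40 for CD164 and 0.73 for CAMKMT. EDA changed the most, from -1.17 without the score. All 5 endothelial markers were below 0, with a median of -0.33, and none of them passed, with 3 at an unadjusted P-value below 0.05 in limma (14.7% of all genes). Of other cell types, all 4 matched T or NK cell markers were above 0, with a median of 0.71. An unadjusted P-value below 0.05 in limma was found for 1 of them, against 14.7% of all genes. The lone matched markers of B cells, CD22, and of Schwann cells or nerve, NGFR, differed by 0.85 (SE 0.28) and -1.48 (SE 0.35). Neither they nor any other marker passed for obese minus lean, and the part of these cells in the differences of the 6 genes was not tested. For sex, LIPE, the hormone sensitive lipase, was lower in males by a log2 difference of -0.55 (limma, BH-adjusted P = 0.00534) and DCN, the matrix proteoglycan decorin, was higher by 0.62 (limma, BH-adjusted P = 0.0222).

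The genes most like each of the 6 in their variation within the groups were named from the same residuals of 36 pigs, as a description over libraries that share tissue and depth. TAS1R3 was closest to SNRNP70, a component of the spliceosome (r = 0.696), AFDN, an adherens junction protein (0.674), and CARD10, a scaffold of NF-kB signalling (0.666). CARMIL3 was closest to PWP2, a ribosome assembly factor (0.704), GRIA2, a glutamate receptor subunit (0.677), and SPAG8 (0.669); its neighbour DHRS4, a short chain dehydrogenase, reached 0.648. After NALF2, EDA was closest to PEX14, a peroxisome import protein (0.644), and KAZALD1 (0.596). TMOD4 was closest to MYO1D, a class I myosin (0.679), NOS3, the endothelial nitric oxide synthase (0.644), and SEMA6A, a semaphorin (0.637). CD164 was closest to LCN2, lipocalin 2 (0.677), COL5A2, a collagen chain (0.667), and the glycolytic enzyme PGAM1 (0.651). CAMKMT was closest to USP10, a deubiquitinase (0.701), SLC24A3, a calcium exchanger (0.630), and ATG4A, a protease of autophagy (0.613). The correlation with the size factor of the library over the residuals ranged from -0.243 for CD164 to 0.351 for CARMIL3.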

How the data were processed

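Total RNA of subcutaneous adipose tissue was sequenced as paired-end poly-A libraries. According to the methods, STAR aligned the reads to the Sscrofa10.2 assembly and HTSeq gave read counts for each gene; genes with low counts were dropped, DESeq supplied the size factors and limma's voom function the final log2 values, which the authors deposited. The log2 values of each pig fall on steps given by reads plus 0.5 over the size factor plus 1, and at least 99.85% of them came within 0.1 of whole reads. The methods state a correction for sex, which whole reads do not show.

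The log2 values were fitted in limma 3.58.1 (R 4.3.3) with empirical Bayes, an intensity trend and terms for group and sex, BH-corrected over 12253 genes at 0.05. Correlations used 100000 two-sided permutations. Tables were made in Python 3.11.15. The limma step was tested on simulated data. Symbols came from a table of gene IDs; NALF2 was matched to RefSeq through its older symbol, a step added after the data were seen.

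The 6 genes and all lists were chosen with earlier results of these data known. Named were the 6 genes, list genes past the threshold or otherwise the 2 farthest from 0 (the 6 apart), the 3 most positive and 2 most negative correlates, the 5 leading other trend genes with a symbol and the neighbour farthest from 0. Alternatives are given in the closing section. Single pigs' phenotypes were not analysed here.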

Additional observations from a re-analysis of the deposited data

Results flagged for a closer look

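EDA was singled out because its obese minus lean difference was larger in males than in females, with an interaction of -1.37 on the log2 scale (unadjusted P = 0.00533, BH-adjusted P = 0.228 over all genes, limma). The interaction was negative in each of the 36 fits that left out 1 pig, from -1.59 to -1.21, with a BH-adjusted P of 0.114 to 0.432 in limma. CAMKMT was singled out because its difference was larger in females, with an interaction of -0.73 (unadjusted P = 0.0162, BH-adjusted P = 0.297, limma), and from -0.85 to -0.64 with 1 pig left out (BH-adjusted P of 0.173 to 0.509, limma). Both rest on unadjusted P-values, which 1577 of 12253 genes had below 0.05. The fits with 1 pig left out share all their pigs with the fit that singled the genes out. They are therefore no separate test of either gene.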

How the results depend on the processing

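The obese minus lean differences of the 6 genes kept their direction under every alternative run for them. The genes were chosen for such differences in the same pigs, so the kept direction is no test of them. The fit without the lowest 25% of genes had no value for TMOD4 and CAMKMT, which that filter removed. With 1 pig left out the differences ranged from -0.80 to -0.68 for TAS1R3, -1.35 to -1.12 for CARMIL3, -1.27 to -1.09 for EDA, -0.90 to -0.77 for TMOD4, 0.43 to 0.50 for CD164 and 0.65 to 0.77 for CAMKMT. In 1 sex alone they were -0.43 (females) and -1.79 (males) for EDA and 1.11 and 0.38 for CAMKMT. Which genes pass the threshold depended far more on the pigs and the fit, and the cause was not tested. With 1 pig left out, the trend with scores of -1, 0 and 1 had 1 (without lean replicate 5) to 274 genes (without lean replicate 2) past the threshold against 3 in all pigs, obese minus lean had 1 to 292 (without lean replicate 2) against 5, male minus female had 147 (without obese replicate 1) to 546 (without lean replicate 1) against 268, and the interaction had 0 to 33 (without lean replicate 2) against 1. These counts moved by over 1.5 times in 19, 28, 6 and 21 of the 36 fits. The trend had 11 genes with the index means as score, 6 with the median of each pig subtracted and 5 without the intensity trend. Obese minus lean had 12 without the intensity trend, 9 with the median subtracted, 3 without sex, 17 in lean and obese pigs alone, 2 in males and 21 in females alone, and 1, not TAS1R3, without the lowest 25% of genes. The interaction had 2 genes without the intensity trend and 0 with the median subtracted.

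Chosen after seeing the data were the division by the size factor alone, with 9 genes for obese minus lean and 0 for the interaction, the fit without both libraries that stood apart, with 1 and 2, the smooth muscle score as a term, with 1 for obese minus lean, none of the 6, and the macrophage score, with 0 for obese minus lean (1306 with an unadjusted P-value below 0.05) and 583 for male minus female.

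The small sex differences changed sign. For TAS1R3 the male minus female difference was 0.0037 with the size factor alone, 0.0064 with the median subtracted and 0.0358 without group, and -0.046 to 0.042 with 1 pig left out. For TMOD4 it was -0.0085 with the macrophage score and -0.017 to 0.093 with 1 pig left out, and for CD164 it was 0.0158 without both libraries. The interaction of CARMIL3 was -0.0279 with the size factor alone, -0.0272 with the median subtracted and -0.18 to 0.33 with 1 pig left out; that of CD164 was -0.0741, -0.0734 and -0.072 to 0.082, and -0.0441 without both libraries; that of TAS1R3 was -0.0093 to 0.29 with 1 pig left out. None of these passed under any alternative. Of the pairs of the 6 genes, 2 passed with the median subtracted, against 0, and with Spearman's rho 0 of the 66 pairs with marker lists passed. When group and sex were not removed, 13 pairs of the 6 genes passed. Those values hold the group differences that chose the genes, so nothing is read from the 13.

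Numbers of reads limit CAMKMT and TMOD4 most. No paired analysis was possible because the replicates carry no shared numbers in the labels.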

Other observations

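The genes with the most negative correlation with each of the 6, over the residuals of 36 pigs, were EIF3J, a translation initiation factor (-0.617), and GGCX, the vitamin K dependent carboxylase (-0.608), for TAS1R3. They were BLTP3B (-0.644) and CAV2, a caveolin (-0.586), for CARMIL3, and RIBC1 (-0.686) and APOOL, a mitochondrial inner membrane protein (-0.634), for EDA. For TMOD4 they were ASNSD1 (-0.632) and EIF4G2, a translation factor (-0.583), and for CD164 SERPINI1, neuroserpin (-0.705), and DDR1, a collagen receptor (-0.642). For CAMKMT they were KDM5B, a histone demethylase (-0.697), and SPATA7 (-0.691). None of these genes passed for obese minus lean in limma, with BH-adjusted P-values of 0.129 for APOOL to 0.908 for EIF3J.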
